A study of Mus musculus with 7 samples.

Results

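Messenger RNA of 10 genes that encode gut hormones or neuropeptides outside the classical islet hormones was measured in sorted mouse pancreatic alpha cells, with and without the homeodomain transcription factor NKX2.2. The genes are Cck, Gast, Nts, Tac1, Gal, Cartpt, Penk, Pomc, Calca and Calcb, picked by symbol, and all 10 were found among the 55536 genes of the count table. The cells came from islets of C57BL/6J mice (spelled C57B1/6J in the design text) and were sorted for tdTomato. The 4 control libraries (C1 to C4) have the genotype Nkx2.2+/+;Gcg-iCre;Rosa26:tdTomato. The 3 knockout libraries (KO; K1, K2 and Ku) have Nkx2.2fl/fl in place of Nkx2.2+/+, and otherwise the same Gcg-iCre and Rosa26:tdTomato alleles. Ku is the KO column whose header number, 4, matches no KO title. Cre follows the glucagon gene, which means that recombination and the sorted colour both depend on glucagon expression. Age, sex and the number of mice behind a library are not given in the labels, and the p-values therefore measure the spread between libraries, which may be technical.

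Peptide hormones and neuropeptides are cut from longer precursors in secretory granules, often amidated, and released by exocytosis to act mostly on G protein-coupled receptors. Enteroendocrine cells, islet cells and neurons share this machinery, and a cell is partly recognized by which precursor genes it transcribes. In the pancreas, substance P, galanin and calcitonin gene-related peptide (CGRP) are best known from nerve fibres, while gastrin is known from the fetal islet.

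Of the 10 genes, Calca passed the test and was higher in KO, at 2.89 times the control mean. Calca encodes calcitonin and CGRP alpha by alternative splicing. Gast, the gene of the stomach hormone gastrin, lay at 0.0937 of the control mean in KO on few counts, and DESeq2 gave it no adjusted p. The other 8 genes did not pass.

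Upstream sequence is shown for Calca and Gast, whose libraries separate the groups. Nts also separates them, but with at most 2 counts in any library, and its sequence is not shown. Cartpt is shown because it alone among the matched members holds a full cyclic AMP response element. Each sequence is the 250 bases before the RefSeq start on GRCm38.p6, read 5′ to 3′ on the strand of the gene. Capitals mark TGACG, the start of that element (TGACGTCA), and the TATA box TATAAA, on either strand.
Calca: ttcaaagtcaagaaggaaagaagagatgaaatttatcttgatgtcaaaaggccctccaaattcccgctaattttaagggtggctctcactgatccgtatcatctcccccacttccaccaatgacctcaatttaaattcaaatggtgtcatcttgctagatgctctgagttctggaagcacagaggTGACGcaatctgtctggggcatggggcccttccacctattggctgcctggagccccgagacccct
Gast: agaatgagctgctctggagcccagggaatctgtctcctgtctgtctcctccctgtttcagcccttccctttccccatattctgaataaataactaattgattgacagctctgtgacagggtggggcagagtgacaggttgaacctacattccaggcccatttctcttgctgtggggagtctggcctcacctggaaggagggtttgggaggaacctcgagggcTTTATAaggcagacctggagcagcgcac
Cartpt: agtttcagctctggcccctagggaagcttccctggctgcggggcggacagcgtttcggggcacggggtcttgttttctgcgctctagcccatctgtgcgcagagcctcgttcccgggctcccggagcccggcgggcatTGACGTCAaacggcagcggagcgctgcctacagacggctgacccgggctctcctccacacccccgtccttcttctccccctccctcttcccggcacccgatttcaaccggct

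The Calca window is chr7:114636358-114636607 (minus strand), with TGACG from -65 to -61 relative to the start. The Gast window is chr11:100334157-100334406 (plus strand), with TATAAA on the opposite strand from -28 to -23. The Cartpt window is chr13:99900684-99900933 (minus strand), with TGACGTCA from -112 to -105, which also holds TGACG on both strands. RefSeq windows were matched for 8 members: Cck, Gast, Nts, Tac1, Gal, Cartpt, Pomc and Calca. Among 32851 windows of this length, TGACG was found in 17.8%, TGACGTCA in 1.5% and TATAAA in 12.4%. TAAGTG and CAAGTG, forms of the core bound by NK2-class homeodomain proteins, occurred in 7.9% and 11.6% of all windows and in none of the 8. A match is only a run of letters, and no binding was measured.

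Library totals ran from 45483504 to 72456557 counts. In every library at least 84.4% of the counts from 1 to 10 were even, so a value of 2 may stand for 1 fragment. Values below are normalized counts, meaning counts divided by the size factor of the library, unless called counts. C4 stood apart from the other controls, with 31024 genes detected against at most 24153, and results of Calca and Gast without it are given beside them. Nkx2-2 itself averaged 10468 ± 1618 (SD, n = 4) in C1 to C4 and 7662 ± 115 (SD, n = 3) in the KO libraries, a log2 difference of -0.45 (SE 0.13) with adjusted p-values of 0.0218 in DESeq2 and 0.152 in edgeR. Which exons Cre removes is not given in the labels, so counts over the whole gene check the deletion only in part. Among alpha cell markers, 7 of 9 passed in DESeq2 and were lower in KO, and Gcg was outranked per kilobase by 1 gene in controls and by 2 in KO.

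All 10 genes had mean levels below those of the 8 islet hormone genes, and far below those of 7 of them. The exception is Ghrl, the ghrelin gene, with a control mean of 459 per kilobase and a lowest control (C3) of 24.2, under every control of Pomc and Calca. Per kilobase of exon, mean levels in controls were 193 for Pomc, 63.1 for Calca, 49.5 for Gast, 38.6 for Cartpt, 13.2 for Tac1, 9.48 for Penk, 6.44 for Gal, 3.75 for Cck, 1.74 for Nts and 0.572 for Calcb. On this scale Gcg stood at 4714007, or 24408 times Pomc. Single controls of Pomc (168 to 216 per kilobase) lay above those of Calca (48.2 to 89.7). The ranges of Calca, Gast (22.8 to 82) and Cartpt (21.3 to 64.7) overlapped, as did those of Tac1, Penk, Gal and Cck, so the order inside each of these sets is not resolved. In KO, Calca moved to the top with a mean of 182 per kilobase (160 to 211), and its range overlapped that of Pomc (121 to 194, mean 151).

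**Figure D1:**
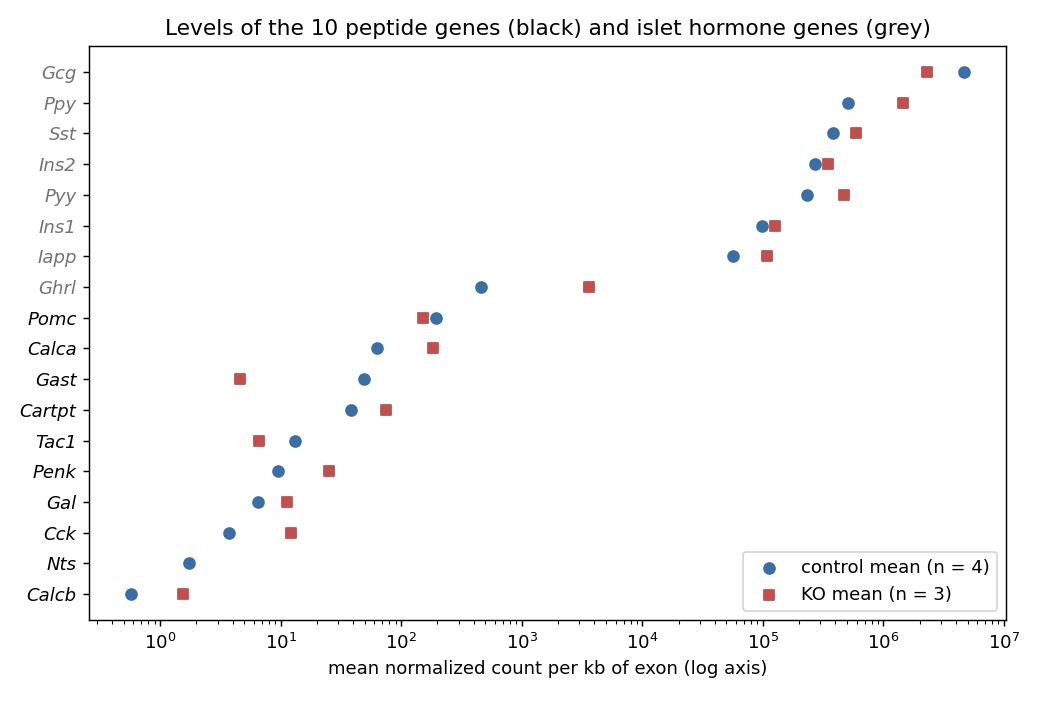
Mean normalized count per kilobase of exon (log axis) in control (circles, n = 4) and KO (squares, n = 3) for the 10 peptide genes (black names) and 8 islet hormone genes (grey names). All 10 means lie below that of Ghrl, the lowest of the islet hormone genes, in both groups, and Nts has no KO point because it had 0 counts there.

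DESeq2 gave 5 of the 10 genes an adjusted p (Tac1, Cartpt, Penk, Pomc and Calca) and left out the other 5 for low mean counts. Calca was the 1 member called, against 4.51% of the 17571 genes tested, of which 394 were higher (2.24%) and 398 lower (2.27%). Scaled to library totals, 981 genes were called, 684 of them higher. The groups did not overlap for 3 members (Calca higher in KO, Gast and Nts lower), against 7.29% of all genes with a count. edgeR tested 7 members and called Calca, against 1.05% of 19310 genes. The median log2 difference of the 5 members was 0.96, beside 0.01 over all genes tested, and it describes members past a filter on level, not all 10. Library-total scaling shifted the median of all genes by 0.10 and reversed none of the 8 members given a log2 difference.

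**Figure D2:**
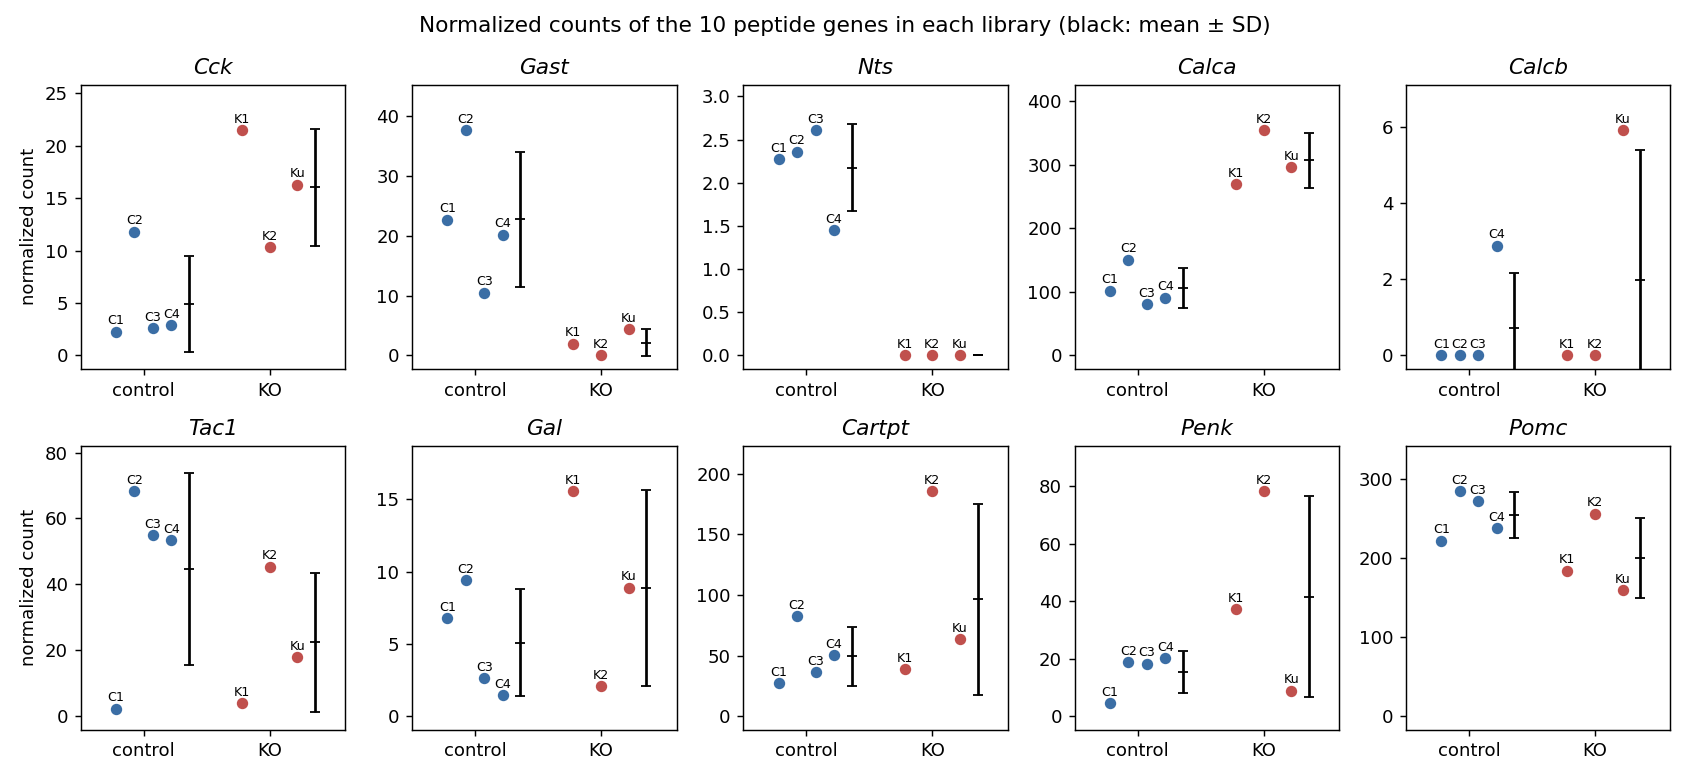
Normalized counts (linear axis, a separate scale for each gene) in controls C1 to C4 (blue) and KO libraries K1, K2 and Ku (red), with mean ± SD in black. The Calca groups are apart with KO higher, the Gast and Nts groups are apart with KO lower, and the remaining 7 genes overlap.

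Calca (ENSMUSG00000030669, chromosome 7, 114631478 to 114636357, minus strand, GRCm38) is the source of CGRP, a vasodilator of sensory nerves, and of calcitonin, the hormone of thyroid C cells. C1 to C4 had 102, 151, 81.1 and 91.1, whereas K1, K2 and Ku had 270, 355 and 296. Every KO library exceeded the highest control, a separation seen with KO higher in 3.67% of the 35178 genes with a count. Calca rose from a mean of 106 ± 31 (SD, n = 4) to one of 307 ± 43.7 (SD, n = 3). The log2 difference was 1.53 (SE 0.30, 95% interval 0.95 to 2.11), and the adjusted p was 2.23e-05 by DESeq2 and 0.0418 by edgeR.

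Leaving out 1 library at a time kept the Calca difference between 1.41 and 1.75 in DESeq2. All 7 of these fits passed, from an adjusted p of 3.53e-07 (C2 left out) to 0.00837 (K2 left out), with 4.12e-05 when C4 was left out. The edgeR fits, added after the data were seen, passed in 2 of 7 cases: 0.0183 leaving out C2 and 0.046 leaving out C4. The edgeR adjusted p was 0.13 leaving out C1, 0.124 for C3, 0.167 for K1, 0.181 for K2 and 0.12 for Ku.

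**Figure D3:**
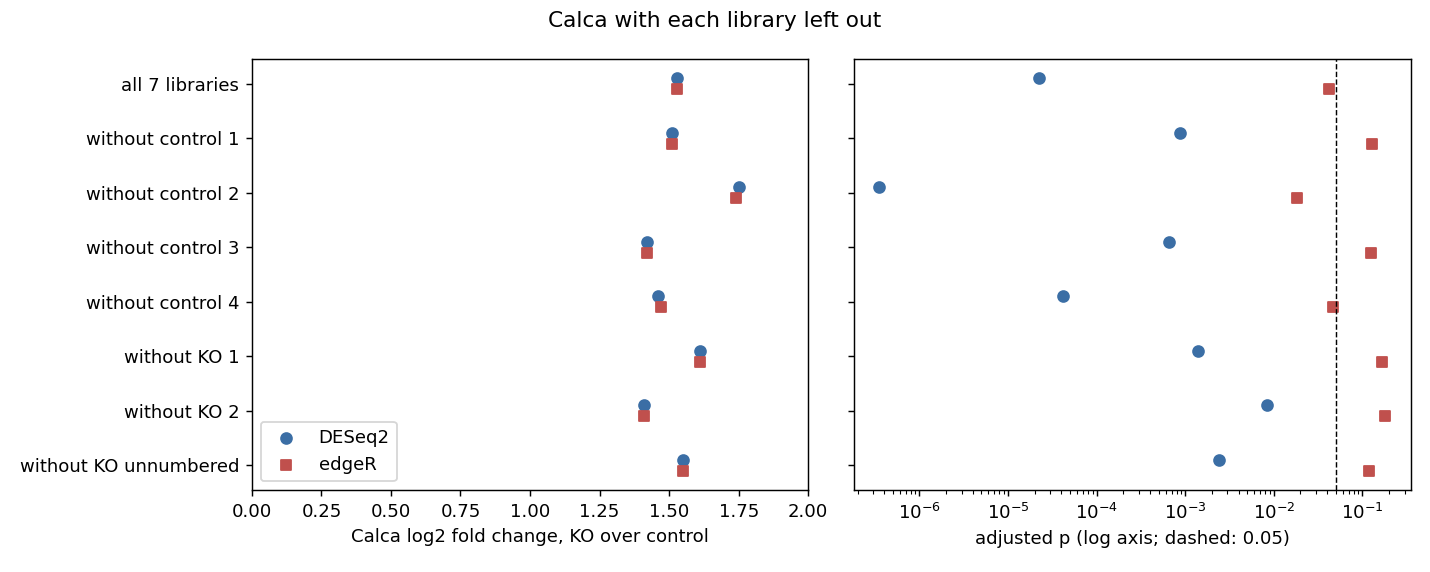
Calca log2 fold change of KO over control (left) and adjusted p (right, log axis, dashed line at 0.05) with all 7 libraries and with each left out, in DESeq2 (circles) and edgeR (squares). The difference stays between 1.41 and 1.75, all DESeq2 values lie left of the line, and 5 of the 7 edgeR values with a library left out lie right of it.

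Calca has 7 annotated transcripts, 6 of them protein-coding, and counts per gene merge calcitonin and CGRP messages. Calcb (ENSMUSG00000030666, chromosome 7, 114718643 to 114723365, plus strand), the CGRP beta gene, lies near it. Calcb had 4 counts in C4, 8 counts in Ku and 0 elsewhere, and C4 and Ku were the deepest libraries. No fold is given for it, since most libraries are at 0. Calca and Calcb transcripts share an exact run of 61 bases, and 2.6% of the 31-base words of Calcb occur in Calca, so a small part of their reads could be assigned to either.

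Markers of other cells were read beside Calca. Trpv1, the capsaicin receptor of pain fibres, had 0, 0, 2.61 and 17.3 in C1 to C4 and 9.78, 0 and 2.22 in K1, K2 and Ku, and was thus at 0 in K2, where Calca was highest. The 4 delta cell markers (Sst, Hhex, Rbp4 and Ghsr) summed to 196263 to 398978 in controls and 355301 to 632402 in KO. Of these 4, Rbp4 was called higher in DESeq2 (adjusted p = 0.0127) and not in edgeR (0.0761). The 8 beta cell markers summed to 301098 to 618057 in controls and 439541 to 845077 in KO, and 0 of 8 were called by either tool. K1 had the highest delta and beta sums of all 7 libraries and the lowest Calca of the KO libraries. Among the islet hormone genes, Ppy, Pyy, Ghrl and Iapp also separated the groups with KO higher, as Calca did. Sst, Ins1 and Ins2 overlapped between the groups, and Gcg was lower in every KO library. Rbp4, the beta cell marker Slc2a2 and 3 of the 5 duct markers separated with KO higher too, while the other beta and delta cell markers overlapped. Slc2a2 was at 1.56 times its control mean (adjusted p = 0.0649 in DESeq2, 0.298 in edgeR). Ppy, the pancreatic polypeptide gene, was at 2.84 times its control mean (adjusted p = 2.52e-08 in DESeq2, 0.0474 in edgeR). Pyy, which encodes peptide YY, was at 2.01 times (5.94e-07 in DESeq2, 0.0536 in edgeR), and Ghrl at 7.82 times (0.13 and 0.202). Iapp, the amylin gene, was at 1.91 times (adjusted p = 0.00148 in DESeq2, 0.153 in edgeR). The 5 duct markers summed to 8350 to 12381 in controls and 11901 to 12455 in KO, and 1 of them, Spp1, was called higher in DESeq2 (1.58 times, adjusted p = 0.0246; edgeR 0.146). The duct markers Sox9 (3.22 times, DESeq2 adjusted p = 0.169) and Cftr (3.56 times, 0.166) did not pass but had every KO library above every control. Krt7 (1.14 times), the most abundant duct marker, and Krt19 (1.43 times) overlapped between the groups. The part of any of these cells in the Calca result was not tested, and in bulk RNA fewer cells of a type and less RNA per cell cannot be told apart.

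Gast (ENSMUSG00000017165, chromosome 11, 100334407 to 100336996, plus strand) makes gastrin, which drives acid secretion. It had 20, 32, 8 and 28 counts in C1 to C4 and 2, 0 and 6 in K1, K2 and Ku. Normalized, these are 22.7, 37.7, 10.5 and 20.2 against 1.96, 0 and 4.44. All KO libraries were under the lowest control, a separation seen with KO lower in 3.62% of genes with a count. The means were 22.8 ± 11.3 (SD, n = 4) and 2.13 ± 2.23 (SD, n = 3), and the log2 difference was -3.36 (SE 1.08, 95% interval -5.47 to -1.24). The unadjusted p was 0.00189 in DESeq2, which gave no adjusted p because the overall mean of 13.9 fell under its filter. An adjusted p was obtained as 0.0461 with TMM scaling in DESeq2, 0.0739 with its filters off and 0.196 in edgeR, so Gast is not counted as changed. Leaving out C4 gave -3.41, again with no adjusted p.

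Cck (ENSMUSG00000032532, chromosome 9, 121489824 to 121495694, minus strand) makes cholecystokinin, which contracts the gall bladder and stimulates pancreatic enzyme release. It had 2, 10, 2 and 4 counts in C1 to C4 and 22, 10 and 22 in K1, K2 and Ku. C2 exceeded K2 after normalization (11.8 against 10.3), and the other 3 controls lay below all KO libraries. The log2 difference was 1.73 (SE 1.05, 95% interval -0.33 to 3.78), with an edgeR adjusted p of 0.504 and none in DESeq2. It was 2.62 leaving out C2. Cck and Gast encode related peptides, yet their transcripts share no exact run longer than 12 bases.

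Nts (ENSMUSG00000019890, chromosome 10, 102481756 to 102490486, minus strand) makes neurotensin, a product of gut N cells and neurons. It had 2 counts in each control and 0 in each KO library. The groups do not overlap, but all 7 libraries are under the 3 counts that a count of 0 allows, so a difference was not detectable at this depth.

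Enteroendocrine markers were read beside these gut hormone genes. The 9 markers that are not members summed to 16672 to 20582 in controls and 12625 to 13530 in KO, most of it Etv1. In the list of 12 that includes Cck, Nts and Tac1, Etv1 (log2 difference -0.51, adjusted p = 0.000604) and Fev (-0.65, 0.00706) fell in DESeq2, and edgeR called 0. Neurog3 (1.53 times the control mean) and Nkx6-3 (1.27 times) lay higher in KO, Sct (0.654 times) and Tac1 lower, and these did not pass. The markers thus did not move in 1 direction. Etv1 averaged 16339 and Fev 1858 in controls, while Gip, Insl5 and Lmx1a averaged at most 2.33 in either group. Insl5, a hormone of colonic L cells, was at 0 in 5 of the 7 libraries. The part of these cells in the Gast and Cck values was not tested.

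**Figure D4:**
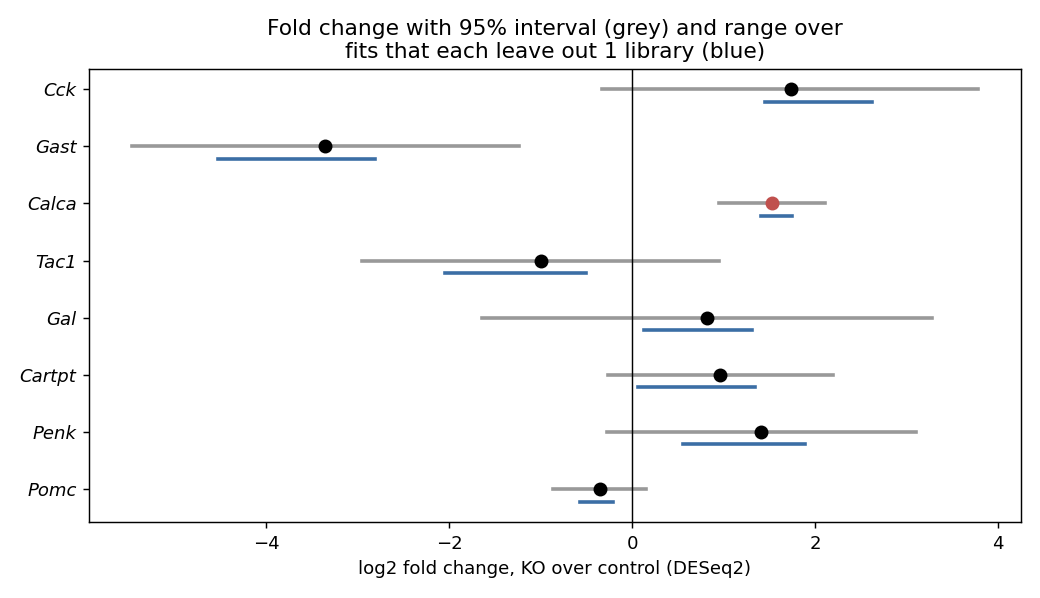
Log2 fold change of KO over control in DESeq2 for 8 members (points; Calca in red), with the 95% interval in grey and the range over the 7 fits that each leave out 1 library in blue. The intervals of Calca and Gast exclude 0, and the range for Cartpt reaches down to 0.06.

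Tac1 (ENSMUSG00000061762, chromosome 6, 7554879 to 7565834, plus strand) makes substance P and neurokinin A, tachykinins of sensory and enteric neurons. C1 to C4 had 2.27, 68.4, 54.9 and 53.5, and K1, K2 and Ku had 3.91, 45.4 and 17.8. C1 and K1 held almost none, and the groups overlapped. The log2 difference was -1.0 (SE 1.0, 95% interval -2.95 to 0.95), with adjusted p-values of 0.903 (DESeq2) and 0.883 (edgeR). It ran from -2.04 to -0.51 when single libraries were left out.

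Neuron genes were low in the same pair of libraries. Nos1, the neuronal nitric oxide synthase, had 107, 719, 628 and 241 in C1 to C4 and 0, 857 and 330 in K1, K2 and Ku. Prph, a filament of peripheral neurons, had 70.3, 594, 510 and 80.9, then 9.78, 531 and 194. Vip, the vasoactive intestinal peptide gene, had 204, 1059, 975 and 596, then 0, 960 and 762. For these 3 genes, picked after their values were seen, K1 was the lowest library and C1 the lowest control. Of 12 neuron markers 1 was called, the neurofilament gene Nefm, higher in KO in DESeq2 (adjusted p = 1.5e-05) and not in edgeR (0.0588). The other 11 summed to 431 to 2015 in controls and 379 to 2073 in KO. The part of nerve RNA in the Tac1 values was not tested.

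**Figure D5:**
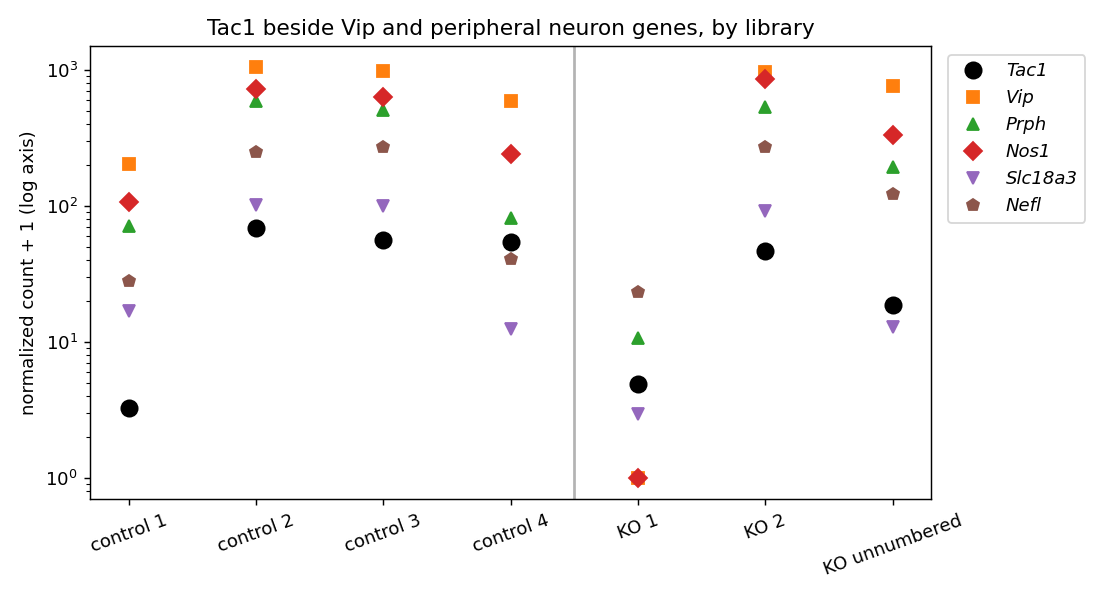
Normalized count plus 1 (log axis) of Tac1 (black circles), Vip, Prph, Nos1, Slc18a3 and Nefl in each of the 7 libraries, controls left of the grey line and KO right of it. Tac1 is lowest in C1 and K1, where the other genes are also low, while C4 has Tac1 at 53.5 with Prph at 80.9.

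Cartpt (ENSMUSG00000021647, chromosome 13, 99898489 to 99901091, minus strand) makes CART peptides, known from hypothalamic and enteric neurons and from islets. C1 to C4 had 27.2, 82.6, 36.6 and 50.6, and K1, K2 and Ku had 39.1, 186 and 63.7. K2 stood above the rest and the groups overlapped. The log2 difference was 0.96 (SE 0.62, 95% interval -0.26 to 2.19), with adjusted p-values of 0.653 (DESeq2) and 0.705 (edgeR), and it was 0.06 leaving out K2. C2 and K2 also had the highest sums of the 11 neuron markers in their groups (2015 and 2073), and the part of nerve RNA here was not tested.

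Gal (ENSMUSG00000024907, chromosome 19, 3409915 to 3414544, minus strand) makes galanin, a sympathetic peptide that inhibits insulin release. It had 6, 8, 2 and 2 counts in controls and 16, 2 and 12 in KO. The groups overlapped, and the log2 difference of 0.82 (SE 1.25) has a 95% interval from -1.64 to 3.28. DESeq2 gave no adjusted p.

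Penk (ENSMUSG00000045573, chromosome 4, 4133531 to 4138819, minus strand) makes the enkephalins. C1 to C4 had 4.54, 18.9, 18.3 and 20.2, and K1, K2 and Ku had 37.2, 78.5 and 8.89. K1 and K2 exceeded all controls and Ku lay among them. The log2 difference was 1.41 (SE 0.86, 95% interval -0.27 to 3.10), with adjusted p-values of 0.592 (DESeq2) and 0.63 (edgeR), and leaving out K2 gave 0.56. Penk is the 1 member with exons under a gene on the opposite strand (A830012C17Rik, 14.3% of its exon length). Since the strand setting is not given, reads there may come from either.

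Pomc (ENSMUSG00000020660, chromosome 12, 3954951 to 3960642, plus strand) is the precursor of corticotropin, melanocortins and beta-endorphin. C1 to C4 had 222, 285, 272 and 238, and K1, K2 and Ku had 184, 256 and 159. K2 lay among the controls, and K1 and Ku lay below them. The log2 difference was -0.35 (SE 0.26, 95% interval -0.86 to 0.15), with adjusted p-values of 0.745 (DESeq2) and 0.738 (edgeR).

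Receptors of the 10 peptides formed a list of 24 genes, of which 21 had a count and 9 an adjusted p in DESeq2. 0 of these 9 were called in DESeq2, and 0 of 10 in edgeR. Their median log2 difference was 0.50, beside 0.01 over all genes. The 3 most abundant were Sort1, Ramp1 and Galr1. Sort1, the sorting receptor sortilin that also binds neurotensin, averaged 10335 ± 685 (SD, n = 4) in C1 to C4 and 10535 ± 1265 (SD, n = 3) in the KO libraries. Galr1, a galanin receptor, had 386 ± 99.6 and 545 ± 58.8 (log2 difference 0.50, DESeq2 adjusted p = 0.317), and passed leaving out C2 (0.037).

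Since Calca passed, the receptor genes of its products follow in full. Calcrl, the calcitonin-like receptor that forms the CGRP receptor with RAMP1, had 20.4, 113, 0 and 11.6 in C1 to C4 and 219, 450 and 227 in K1, K2 and Ku. All KO libraries exceeded all controls, yet controls varied widely, and the log2 difference of 3.04 (SE 1.45) had adjusted p-values of 0.336 (DESeq2) and 0.3 (edgeR). Leaving out C2 gave 4.78 (DESeq2 adjusted p = 2.34e-11), and leaving out C3 gave 2.63 (0.00864). Endothelial cells express Calcrl, and 5 endothelial markers summed to 175 to 234 in controls and to 115, 748 and 296 in K1, K2 and Ku. K2 had the highest endothelial sum and the highest Calcrl, whereas K1 had the lowest endothelial sum with Calcrl above every control. The part of endothelial RNA in the Calcrl values was not tested. Ramp1 (log2 difference -0.12, SE 0.19, adjusted p = 0.981), Ramp2 (0.24, 0.40, 0.984) and Ramp3 (0.60, 0.73, 0.952) did not pass in DESeq2. Calcr, the calcitonin receptor, had 6.81, 7.08, 0 and 33.2 in controls and 0, 2.07 and 0 in KO, with no adjusted p.

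Genes that cut, modify or sort peptide precursors, or that clear peptides, formed a list of 21, of which 20 had an adjusted p. In DESeq2 1 rose and 1 fell, and edgeR called 0. The median log2 difference of the 20 was 0.02. Pcsk1, the convertase that cuts pro-opiomelanocortin, had 3839, 4327, 2789 and 2025 in C1 to C4 and 6887, 5649 and 5004 in K1, K2 and Ku. All KO libraries were higher (log2 difference 0.85, SE 0.23, adjusted p = 0.00877 in DESeq2, 0.177 in edgeR). Leaving out C3 (0.0649) or K1 (0.194) ended the DESeq2 call. Pcsk1n, whose product proSAAS inhibits that convertase, had 86507, 89307, 125987 and 78874 in controls and 62426, 65185 and 45785 in KO. All KO libraries were lower (-0.72, SE 0.18, adjusted p = 0.00285 in DESeq2, 0.165 in edgeR).

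Peptide genes outside the 10 and the islet hormones formed a list of 47, of which 39 had a count and 12 an adjusted p in DESeq2. Npy, Pdyn and Pnoc rose, Vgf fell, and the median of the 12 was 0.06. edgeR tested 15 and called Vgf. Vgf, a granule peptide precursor of endocrine and nerve cells, averaged 1647 ± 130 (SD, n = 4) in C1 to C4 and 610 ± 188 (SD, n = 3) in the KO libraries, with all KO libraries lower (log2 difference -1.43, SE 0.20, adjusted p = 2.67e-10 in DESeq2, 0.0137 in edgeR).

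Pdyn, the prodynorphin gene and an opioid relative of Penk, had 572, 467, 766 and 468 in C1 to C4 and 1189, 1088 and 1009 in K1, K2 and Ku (0.95, SE 0.21, adjusted p = 0.000278 in DESeq2, 0.0528 in edgeR). Pnoc, the nociceptin precursor, had 45.4, 42.5, 44.4 and 36.1, then 178, 293 and 44.4. Ku was at the control level for Pnoc, as it was for Penk. The Pnoc difference of 2.03 (SE 0.56, adjusted p = 0.0101 in DESeq2, 0.155 in edgeR) did not pass in DESeq2 leaving out K1 (0.126) or K2 (0.364). Npy, a peptide of sympathetic nerves also known from immature islet cells, had 132, 1833, 358 and 191, then 5400, 6328 and 5047 (3.15, SE 0.97, adjusted p = 0.0291 in DESeq2, 0.12 in edgeR). Leaving out C2 gave 4.63 (8.87e-58), and the DESeq2 call ended leaving out C1 (0.0774), C3 (0.157) or C4 (0.0724). Whether Calca differs from these genes in its response was not tested.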

How the data were processed

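The authors deposited raw counts per gene, whole numbers with no normalization. FastQC, STAR, featureCounts, DESeq2 and mm10 are named in the submitters' processing notes. The strand setting and the counting of mates are not given in the sources used here. Per the labels, a Takara SMARTer stranded pico kit was used. Gene positions and exon lengths come from GENCODE M21 (GRCm38), which holds all 55536 IDs. DESeq2 1.42.0 (R 4.3.3) was fitted without covariates over all genes, as the design text states for the authors, with default filters, a Wald test and Benjamini-Hochberg adjustment at 0.05. Differences are KO over control. Alternatives were edgeR 4.0.16 (quasi-likelihood), limma 3.58.1 (voom), other filters and scalings, halved counts, left-out libraries and a replicate block. The edgeR fits with a library left out were added after seeing the data. All pairs of libraries within a group differed by more than sampling noise (chi-square per degree of freedom of 40.1 or more). On simulated counts, unchanged genes made up a larger share of the DESeq2 calls than of the edgeR or voom calls. That share was more than the DESeq2 threshold allows for, so edgeR values stand beside it. The simulated counts were drawn with spreads estimated by edgeR, which may favour edgeR. Named genes were the members, Nkx2-2, list genes that passed or otherwise the 3 with the highest means, and receptors of a member that passed; marker genes beside them were picked after their values were seen. The members and lists were chosen with earlier results of these data known. The 95% intervals come from the Wald test, and the 3-count floor reflects counting error only.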

Additional observations from a re-analysis of the deposited data

Results flagged for a closer look

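Dixon's test at 95% was run on the 4 controls of 16 genes (the 10 members and the 6 called list genes), where chance alone would mark about 0.8. It marked 4. For Cck, C2 had 11.8 normalized counts and the rest 2.27 to 2.89. For Npy, C2 had 1833 and the rest 132 to 358. For Penk, C1 had 4.54 and the rest 18.3 to 20.2. For Calcb, C4 had 2.89 (4 counts) and the rest 0.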

How the results depend on the processing

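Calca was higher in KO under all 25 alternatives and past the threshold in 20, and the 5 that missed were edgeR fits with a library left out. With TMM scaling in DESeq2, 2 members were called, Gast being the addition. Leaving out single libraries gave 1 member in each DESeq2 fit and 0 to 1 in edgeR. Genes called over the whole table numbered 792, against 203 in edgeR, 329 in edgeR without its filter and 292 in voom, and 430 (without K1) to 910 with DESeq2 leaving out single libraries. In edgeR the number was 58 without C1, 330 without C2, 65 without C3, 249 without C4, 20 without K1, 35 without K2 and 32 without Ku. Called receptors went from 0 to 1 with library-total scaling (Galr3), 0 to 2 in DESeq2 and 0 to 1 in edgeR leaving out single libraries. Called processing genes went from 2 to 0 in edgeR with and without its filter and in voom, to 6 without the 2 deepest libraries, to 1 to 3 leaving out single libraries in DESeq2, and to 0 in each such edgeR fit. Other called peptide genes went from 4 to 1 in edgeR, 2 to 5 leaving out single libraries in DESeq2, and 0 to 2 in edgeR. The causes were not tested. Replicate numbers 1 and 2 are shared between the titles of both groups, and the deviations of same-numbered libraries correlated at 0.38 and 0.28 over 5000 genes. C4 and Ku, whose header also has the number 4, correlated at 0.44, while C2 correlated better with K1 (0.34) than with K2. Since no KO title has the number 4, Ku was not paired, and with 2 pairs the numbers are not shown to pair. In the replicate block on those 4 libraries 580 genes were called (622 without the block), with 1 member (Calca, 1.32) and 1 receptor (Calcrl), and Gal reversed to -0.42. Nts and Calcb were too low for a fold under any alternative, and Npy had no adjusted p in DESeq2 leaving out any KO library. Depth limits Cck, Gast, Nts, Gal and Calcb, with at most 32 counts in any library.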

Other observations

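C2 was the highest control for 7 of the 10 members (Cck, Gast, Tac1, Gal, Cartpt, Pomc and Calca), C4 for 2 (Penk and Calcb), C3 for 1 (Nts) and C1 for 0. The 10 members together had 393, 668, 481 and 483 normalized counts in C1 to C4 and 573, 934 and 581 in K1, K2 and Ku, so their sums overlapped between the groups. Galr2, a galanin receptor given no adjusted p, had 374 normalized counts in C4 and at most 6.81 in any other library.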
